A study of Lytechinus variegatus with 64 samples.

Results

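The genes described here are 150 genes of the sea urchin Lytechinus variegatus whose polyA RNA was lower in a library from white spines than in each of 3 libraries from green, red and mixed-colour spines. They were chosen by their values in those 4 libraries. A gene had to reach 10 counts per 1000000 counts of the library (CPM) in each coloured spine, and its lowest coloured value plus 0.5 CPM had to be at least 3 times its white value plus 0.5 CPM. Of 25887 genes in the table, 7459 reached 10 CPM in each coloured spine and 260 of these (3.49%) passed the margin, and the 150 with the highest ratio were kept. The last members were LOC121432084, LOC121428770 and LOC121432057 with ratios of 4.68, 4.63 and 4.62, and the next genes were LOC121408972, LOC121422818 and LOC121406097 with 4.58, 4.55 and 4.52. Because the spine values chose the genes, the spine contrast is described below without a test, and tests are given only in other tissues.

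The study sequenced 64 bulk libraries of wild-type animals as a tissue atlas. Adults came from a Florida supplier and were dissected for 4 spine samples, 1 coelomic fluid sample and 11 other somatic types with 3 or 4 libraries each (axial gland, esophagus, gut, interambulacral plates, lantern muscle, mouth, peristomial membrane, radial canal, radial nerve, rectum and tube foot), and for ovary, testis and eggs with 4 libraries each. A further single library is an ovary labelled stage 1, with no age of its own. The 5 gonad libraries of juveniles at 4.5 months post fertilization were prepared by another sequencing provider, so age and provider cannot be told apart in them. Each spine colour is 1 library with no replicate, and the labels do not say how many animals gave a library or whether libraries of a type came from different animals, so p-values below measure only the spread between libraries. In such bulk samples, fewer cells of a kind and less RNA per cell cannot be told apart.

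A sea urchin spine is a porous rod of calcite covered and penetrated by living tissue, and it moves on a ball joint through muscle and collagenous catch tissue at its base. The spines stand on the skeletal plates of the test, of which the interambulacral plates lie between the rows of tube feet. The lantern is the jaw apparatus, moved by its own muscles, and a flexible peristomial membrane joins it to the edge of the test. Colour in spines and test comes from pigments.

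The genes carry identifiers without product names in the files, and the RefSeq gene table used for names matched all 25887 identifiers but adds a class of gene rather than a name. No roles are therefore given to them. Lists of 17 pigment, 17 skeletal, 6 nerve and muscle and 3 immune symbols matched 0 genes, so the tissue labels could not be checked against named markers either. By RefSeq class, 140 members (93.3%) were protein coding, against 96.0% of the 7459 genes, and 7 were long noncoding RNAs and 3 pseudogenes.

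Library depth ranged from 13113913 to 59521125 counts over the 64 libraries. The green, mixed, red and white spine libraries held 21996265, 23175242, 22179237 and 17506035 counts, and 16671, 16658, 16450 and 16789 genes at 1 CPM or more. The white library was the shallowest of the 4 and detected the most genes at that level. Lantern muscle replicate 4 stood apart from the other 3 lantern muscle libraries in the members, with 5.10% of its counts in them against 13.2% to 21.5%. The members' share, the type of highest mean and the calls in lantern muscle are therefore also given without it.

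Among the 150 members, the lowest coloured value ranged from 10.2 to 12284 CPM with a median of 39.9 CPM. The ratio to white ranged from 4.62 to 51.7 with a median of 8.35, and 58 members had a ratio of 10 or more. In the white spine 17 members were below 1 CPM and 47 were at 10 CPM or more, so most members were lower in white rather than undetected. The coloured spines were not alike. The highest coloured value was in the mixed spine for 64 members, in green for 58 and in red for 28, and the lowest was in red for 80. The highest and lowest coloured values differed by a median of 1.93-fold, and by more than 3-fold for 20 members. The widest gap among colours was in LOC121413829, at 60.2 CPM in green, 475 CPM in mixed and 348 CPM in red, with 1.71 CPM in white.

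**Figure D1:**
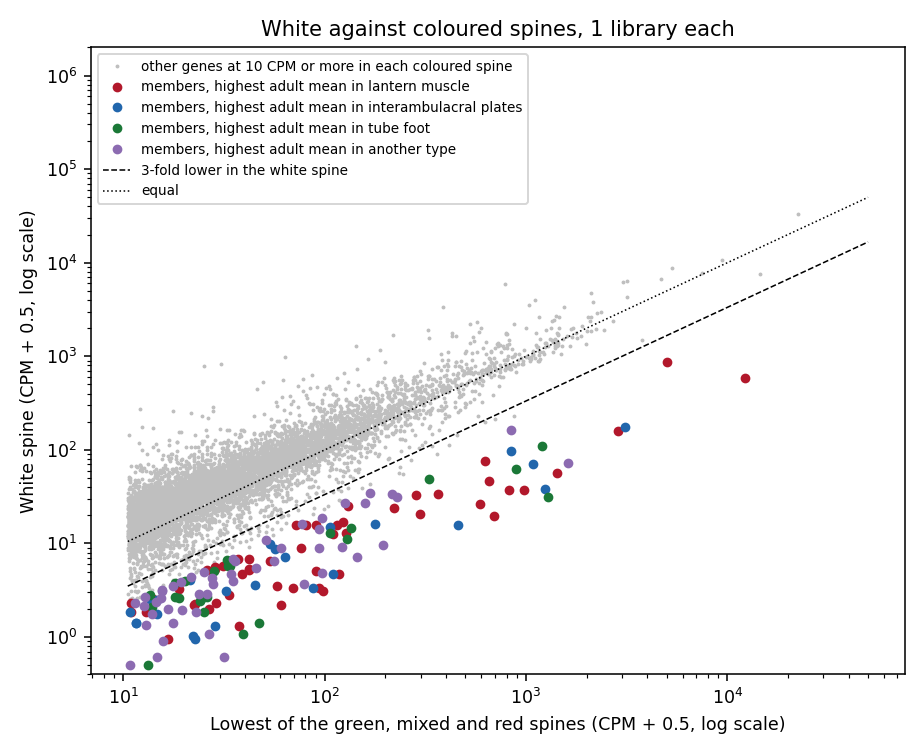
Each point is a gene at 10 CPM or more in each coloured spine, with the lowest of its 3 coloured values on the x axis and its white value on the y axis, both as CPM + 0.5 on log scales. Members are coloured by the adult type of highest mean, grey points are the other genes, and the dashed line is the 3-fold margin that chose the members. Lantern muscle members run up to 12284 CPM on the x axis.

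The same margin was passed by fewer genes in each of 4 other arrangements of the spine libraries. White was higher than each coloured spine for 155 of 9493 genes (1.63%). The green, mixed and red spines in turn were lower than the other 3 spines for 33, 64 and 35 genes (0.452%, 0.874% and 0.472%). For scale, each library of the 11 adult types with 4 libraries was set against the other 3 of its type with the same margin. A median of 0.777% of genes at the floor were lower in the library set apart, and 6 of 44 libraries exceeded the share of the white spine, up to 18.5% in gut replicate 2. A single library that is low in several percent of genes therefore also occurred among libraries with 1 label.

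The 8 members with the highest ratio differed widely in level. LOC121408051 led the list at 39.2, 31.2 and 39.6 CPM in green, mixed and red, with 2 counts (0.114 CPM) in white. Its ratio without the added 0.5 CPM was 273, with a 95% interval of 75.4 to 2262 that covers counting error only. LOC121410689 followed at 3952, 3087 and 1286 CPM in green, mixed and red against 30.9 CPM in white. The pseudogene LOC121428605 was at 64.2, 101.5 and 38.5 CPM against 0.571 CPM. LOC121431867 was nearly level among colours, at 843, 786 and 695 CPM, against 19.2 CPM. LOC121419489 was at 75.6, 106.1 and 46.9 CPM against 0.914 CPM, LOC121419866 at 4987, 4130 and 1238 CPM against 37.8 CPM. LOC121414041 was lowest in green among the colours, at 97.6, 324 and 307 CPM, against 2.63 CPM. LOC121410683 was at 1304, 861 and 457 CPM against 15.3 CPM. For each of these 8 the white value was far under all 3 coloured values, as the rule required.

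Counts were also concentrated in a few members, among them the 4 with the most counts in their lowest coloured spine. LOC121424881 was at 13950, 15792 and 12284 CPM in green, mixed and red and 582 CPM in white. LOC121415027 was at 5503, 7601 and 5024 CPM and 867 CPM in white. LOC121424524 was at 5076, 6475 and 3103 CPM and 175 CPM in white, and LOC446191 at 3648, 3698 and 2859 CPM and 158 CPM in white. CPM is not divided by gene length, so these values compare libraries and not genes. Only 2 members had no count in white. LOC121412542 was at 12.7 CPM in its lowest coloured spine, at least 74.0-fold above a floor of 3 counts in the white library. The long noncoding RNA LOC121415528 was at 10.3 CPM, at least 59.99-fold above that floor. Both were picked out after their values were seen.

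Together the members took 6.51% of all counts in the green spine (Wilson 95% interval 6.50% to 6.52%), 7.35% in mixed (7.34% to 7.36%) and 5.19% in red (5.18% to 5.20%). In white they took 0.363% (0.360% to 0.365%). These intervals cover counting error only. Outside the spines the share was 7.51% ± 2.10 (SD, n = 4) in interambulacral plates, 14.1% ± 6.90 (n = 4) in lantern muscle (17.1% ± 4.19 over the 3 libraries without replicate 4), 4.74% ± 1.11 (n = 3) in peristomial membrane and 4.09% ± 1.38 (n = 4) in tube foot. It was 3.44% ± 0.652 in radial canal, 3.38% ± 1.41 in radial nerve and 3.17% ± 2.01 in axial gland (n = 4 each). It was 1.43% ± 0.0829 in rectum (n = 3) and 1.09% ± 0.578 in gut (n = 4), and coelomic fluid had 0.796% in its 1 library. Ovary, eggs and testis had 0.548% ± 0.114, 0.475% ± 0.186 and 0.864% ± 0.191 (n = 4 each), the 5 juvenile gonad libraries 0.682% to 1.45%, and the stage 1 ovary library 0.898%. The coloured spines thus lay within the range of the plate libraries, 5.08% to 10.2%. The white spine lay below every library of every somatic type. The rule chose the members by their low white values, so this only describes them.

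**Figure D2:**
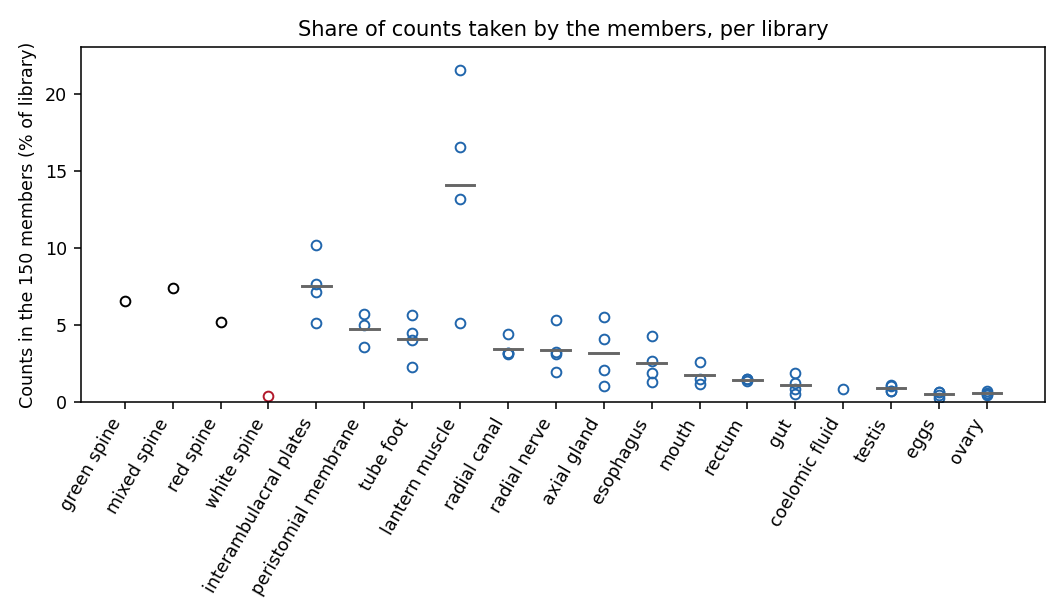
The y axis is the percentage of a library's counts that fell in the 150 members, and each circle is 1 library of the type named on the x axis (white spine in red, other spines in black, other types in blue), with a line at the mean where a type has more than 1 library. The white spine stands at 0.363%, and lantern muscle spreads from 5.10% to 21.5%.

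The median level of the members was 59.7, 66.3 and 51.6 CPM in the green, mixed and red spines and 4.37 CPM in white, whereas the median over the 7459 genes was 38.4, 39.6, 38.7 and 41.7 CPM. It was 66.5 CPM in plates, 65.3 CPM in lantern muscle, 47.9 CPM in peristomial membrane and 42.0 CPM in tube foot. In gut it was 5.10 CPM, in coelomic fluid 5.63 CPM and in ovary 0.876 CPM. The white value, which chose the members, also enters the next counts, so they only describe the members. All 4 plate libraries were above the white spine for 145 of the 150, where this held for 25.7% of the 7459 genes. All 3 peristomial libraries were above it for 137 members (25.8% of the genes), all 4 tube foot libraries for 128 (18.8%) and all 4 lantern muscle libraries for 103 (19.4%). All 4 gut libraries were above white for 44 members (7.27%) and below it for 65 (72.0%).

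Lantern muscle was the adult type with the highest mean for 52 members (34.7%), against 5.08% of the 7459 genes. Plates and tube foot each had the highest mean for 24 members (16% each), against 9.02% and 10.98% of the genes. Radial nerve followed with 12, radial canal and peristomial membrane with 9 each, testis with 6 and mouth with 5, and none had its highest mean in gut or eggs. Of the 52 members led by lantern muscle, 31 had plates as the next highest type. Without lantern muscle replicate 4, 44 members were highest in lantern muscle, 28 in plates and 24 in tube foot.

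**Figure D3:**
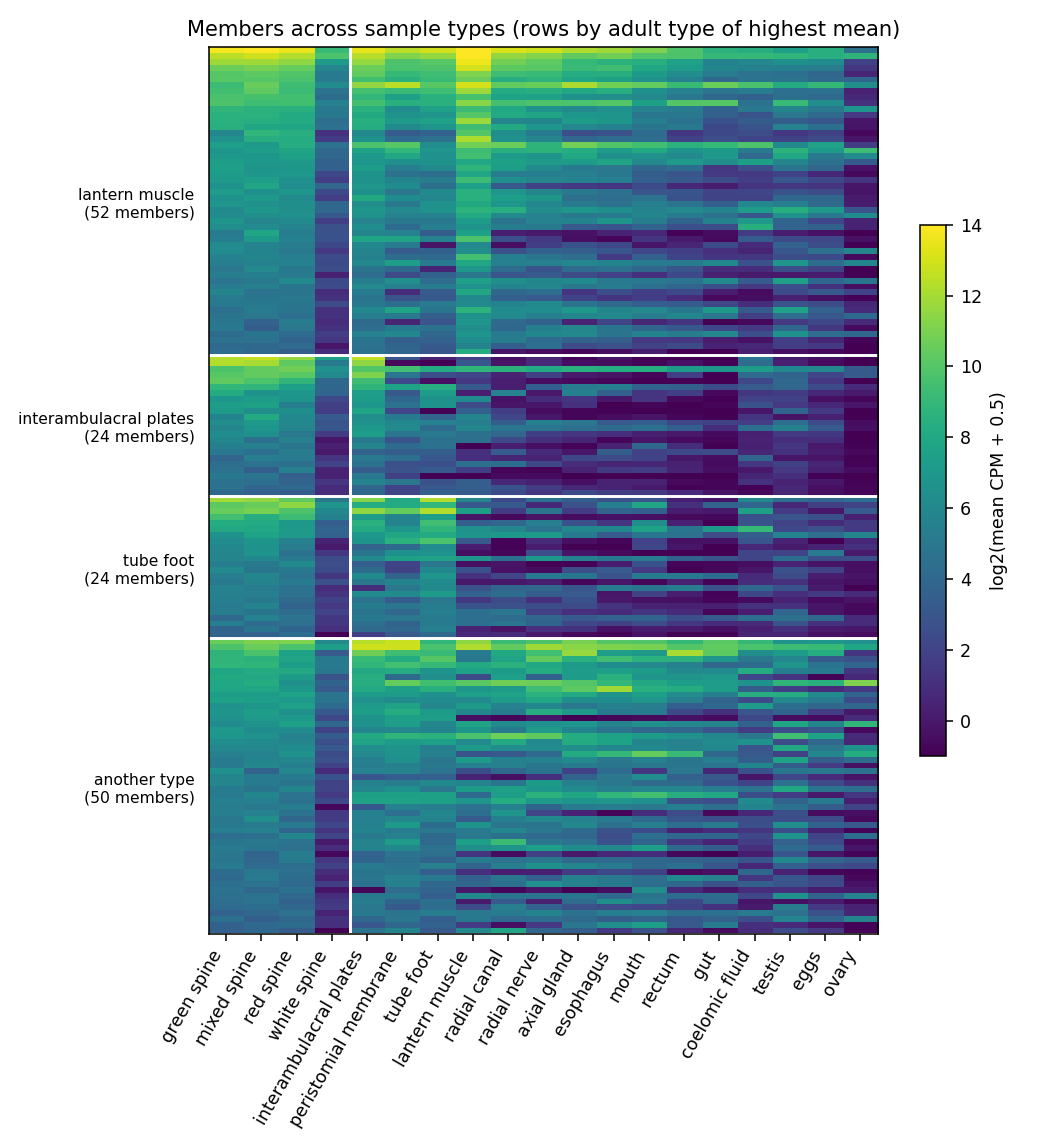
Rows are the 150 members, grouped by the adult type in which their mean is highest and ordered within a group by their coloured spines, and columns are sample types. Colour gives log2(mean CPM + 0.5), from 1 library for each spine and coelomic fluid and 3 or 4 libraries for the others. The 52 lantern muscle members and the 24 plate members are bright in the coloured spines and dark in the white spine, and the plate and tube foot groups are dark in gut, rectum and ovary.

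The groups of members were also summed in the spines. The 52 members led by lantern muscle took 3.42%, 4.05% and 3.04% of counts in green, mixed and red and 0.224% in white. The 24 led by plates took 1.51%, 1.60% and 0.865% and 0.0476% in white. The 24 led by tube foot took 0.876%, 0.842% and 0.649% and 0.0335% in white. In the plate group the red spine held the fewest counts of the 3 colours.

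Differences between tissues were tested with edgeR's quasi-likelihood test in a single fit of the 41 somatic libraries outside the spines, which played no part in choosing the members. The contrast was 1 type against the average of the other 10 somatic types. Calls needed a p under 0.05 after Benjamini-Hochberg adjustment over 22649 genes, and a log2 fold change of at least 1 in size. All 150 members were tested.

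In lantern muscle 78 members were called higher and 13 lower, where 7.76% of all genes were called higher and 5.89% lower. Of the 7458 genes at 10 CPM in each coloured spine that were tested, 7.4% were higher and 8.74% lower. The median log2 fold change of the members was 1.32, against 0.08 over all genes. Without lantern muscle replicate 4 the counts were 69 higher and 8 lower, against 5.37% and 3.47% of 22601 genes, and the medians were 1.25 and 0.02. This comparison was added after lantern muscle was seen to lead the levels.

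LOC121424881, the member with the most counts in the coloured spines, was at 71112, 41145, 57461 and 3832 CPM in the 4 lantern muscle libraries, at 7561 to 15308 CPM in plates and at 244 to 540 CPM in gut. The first 3 lantern muscle libraries were above every plate library and the other was below them all. Its log2 fold change in lantern muscle against the other types was 3.38 (SE 0.44, edgeR adjusted p = 9.57e-07). LOC446191 was at 22005, 11168, 15611 and 835 CPM in lantern muscle against 1910 to 4636 CPM in plates (log2 fold change 4.32, SE 0.33, edgeR adjusted p = 2.22e-11). LOC121415027 was at 37824, 17705, 29475 and 1959 CPM (log2 fold change 3.53, SE 0.29, edgeR adjusted p = 6.84e-11). Replicate 4 was the low library in all 3. Without it the log2 fold changes of LOC121424881, LOC446191 and LOC121415027 were 3.76 (SE 0.44), 4.71 (SE 0.29) and 3.91 (SE 0.25), with edgeR adjusted p of 1.996e-07, 4.59e-13 and 4.89e-13.

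LOC121414041 was uneven between the lantern muscle libraries, at 8816, 3400, 5994 and 32.1 CPM. In plates it was at 63.0, 97.8, 206 and 44.2 CPM and in tube foot at 17.7 to 35.1 CPM. Replicate 4 of lantern muscle thus lay among the tube foot libraries, and the other 3 lay above every other library of the atlas. The log2 fold change was 7.57 (SE 0.47, edgeR adjusted p = 6.42e-13). LOC121413829, with the widest gap among colours, had the same form, at 1364, 961, 1663 and 15.4 CPM in lantern muscle. Its log2 fold change was 6.13 (SE 0.53, edgeR adjusted p = 1.71e-10). Without replicate 4 the values for LOC121414041 and LOC121413829 were 7.98 (SE 0.41) and 6.54 (SE 0.50), with edgeR adjusted p of 3.54e-15 and 2.35e-11. The margin that defined the set was also applied to lantern muscle replicate 4 against the other 3 lantern muscle libraries. Of the 95 members at 10 CPM in those 3, 38 were lower in replicate 4. Of all 7060 genes at that floor, 178 (2.52%) were lower. The next highest count in a library of any of the 11 types was 13 members, in axial gland replicate 1.

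In interambulacral plates 70 members were called higher and 1 lower, against 10.1% and 2.46% of all genes. The median log2 fold change was 1.37, against 0.00 over all genes. Among the 7458 genes at 10 CPM in each coloured spine that were tested, 11.3% were called higher in plates and 2.09% lower, so the members' share of 46.7% was above that of other genes expressed in spines as well. The member called lower was LOC121431621, at 222 to 427 CPM in plates and 1289 to 1525 CPM in peristomial membrane, with no overlap between them. The log2 change was -1.37 (SE 0.40, edgeR adjusted p = 0.0179).

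LOC121424524 was counted mainly in plates and spines, at 2395, 5491, 8652 and 8774 CPM in the plates. It reached at most 18.3 CPM in any peristomial library, 7.33 CPM in lantern muscle and 2.94 CPM in tube foot, and it had no count in gut, rectum or ovary. The plates did not overlap any other somatic type. Its fitted log2 fold change was 14.54 (SE 0.81, edgeR adjusted p = 1.66e-13). LOC121419866 was at 722, 1569, 5845 and 3639 CPM in plates, at most 18.9 CPM in lantern muscle and at most 2.61 CPM in radial nerve. Its fitted log2 fold change was 13.05 (SE 0.64, edgeR adjusted p = 3.42e-16). Where whole types were at 0 counts these fitted values depend on the small count that edgeR adds, and they are neither bounds nor measured folds. In coelomic fluid, LOC121424524 was at 27.9 CPM and LOC121419866 at 20.2 CPM, both below the 175 CPM and 37.8 CPM of the white spine.

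In tube foot 47 members were called higher and 11 lower, against 13.6% and 5.25% of all genes and 14.1% and 3.53% of those at 10 CPM in each coloured spine. The median log2 fold change was 0.53, against 0.01 over all genes. LOC121410689 was at 4295, 9852, 2692 and 1839 CPM in tube foot and 1619, 2397, 3583 and 2369 CPM in plates, which overlapped, and at 160.3, 482 and 214 CPM in peristomial membrane. Its log2 fold change in tube foot was 7.90 (SE 0.55, edgeR adjusted p = 3.82e-13). LOC121419489 was at 460.4, 832, 861 and 1275 CPM in tube foot against 79.1 to 135 CPM in plates, with no overlap. In peristomial membrane it was at 200, 701 and 229 CPM, above all plate libraries, and the 701 CPM lay within the tube foot range. In tube foot against the other types its log2 fold change was 8.73 (SE 0.63, edgeR adjusted p = 1.05e-12).

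The pseudogene LOC121428605 was at 103, 134, 31.9 and 25.5 CPM in tube foot, 3.22 to 18.4 CPM in plates and 12.7 to 22.6 CPM in peristomial membrane. Tube foot did not overlap any other somatic type. The log2 fold change was 7.39 (SE 0.57, edgeR adjusted p = 1.41e-11), a fitted value that includes gut at 0 counts. LOC121423032 was at 613, 655, 538 and 896 CPM in tube foot, 329.5 to 416 CPM in plates and 40.7 to 72.5 CPM in peristomial membrane. Its log2 fold change was 6.09 (SE 0.72, edgeR adjusted p = 4.46e-08). Both were also called higher in plates, at 4.51 (SE 0.60, edgeR adjusted p = 1.37e-06) and 4.92 (SE 0.73, edgeR adjusted p = 5.23e-06).

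In peristomial membrane 48 members were called higher and 1 lower, against 8.32% and 1.59% of all genes. In radial canal 31 were higher and 13 lower, against 13.6% and 8.67%, and in radial nerve 20 and 7, against 7.06% and 1.66%. Mouth and esophagus had 12 and 8 members called higher, against 6.51% and 8.17%, and 5 and 12 lower, against 0.91% and 2.6%.

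The digestive tract beyond the esophagus was the low end of the range. In gut 80 members were called lower and 6 higher, against 15.4% and 15.5% of all genes, with a median log2 fold change of -2.16 against -0.21. Of the genes at 10 CPM in each coloured spine, 23.8% were called lower in gut and 10.2% higher. In rectum 55 members were called lower and 2 higher, against 3.8% and 10% of all genes, and the median was -1.60 against 0.04. LOC446191, for instance, was at 30.9, 24.1, 81.3 and 51.8 CPM in gut, all below the 158 CPM of the white spine. The log2 fold change there was -3.59 (SE 0.61, edgeR adjusted p = 2.02e-05). In axial gland 6 members were called higher and 8 lower, against 7.6% and 0.578%, and the median log2 fold change was 0.10 against 0.14 over all genes. These counts moved with the fit, to 31 higher in a fit of all 53 adult libraries and to 21 lower with DESeq2. Without axial gland replicate 3 they were 1 higher and 4 lower. The share of all genes called in those fits is not given here.

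**Figure D4:**
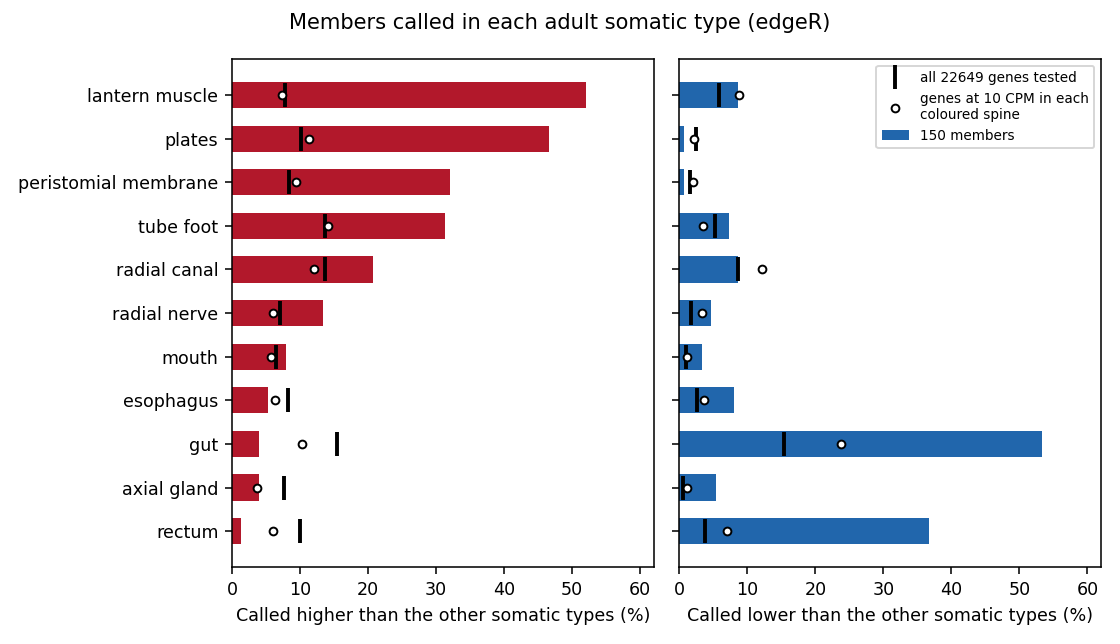
Bars give the percentage of the 150 members that edgeR called higher (left) or lower (right) in each somatic type than in the mean of the other 10 types. Black ticks give the percentage of all 22649 genes tested, and open circles that of the genes at 10 CPM in each coloured spine. Lantern muscle and plates lead on the left, and gut and rectum on the right.

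Plates and tube foot were also compared directly. With edgeR 9 members were called higher in plates and 0 lower, where 0.91% and 0.508% of all genes were called. At an unadjusted p under 0.05, 32 members were higher and 8 lower, and DESeq2 called 3 lower. These last counts are given without the share of all genes, so they are not a result about the members. LOC121419866 had 287261 counts over the 4 plate libraries and 2 counts over the 4 tube foot libraries, a ratio of 132962 per library size with an exact 95% interval of 36808 to 1097920 that covers counting error only (edgeR adjusted p = 8.8e-06). LOC121424524 had 626385 counts in plates and 86 in tube foot (edgeR adjusted p = 0.000743), with the highest tube foot value, 2.94 CPM, in replicate 4. LOC121410683 was at 332, 674, 850.4 and 754 CPM in plates and at 0.923 CPM or less in tube foot (edgeR adjusted p = 2.26e-05). These 3 genes were therefore close to undetected in tube foot while most members were present in both types, with 98 of 150 fitted higher in plates.

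Between plates and peristomial membrane edgeR called 2 members higher in plates and 0 lower, where 0.0221% and 0.0353% of all genes were called. At an unadjusted p under 0.05, 28 members were higher and 8 lower, and DESeq2 called 11 higher and 2 lower. Here too the share of all genes is not given for these last counts. LOC121419866 was at 0, 0 and 0.483 CPM in peristomial membrane, 15 counts in all against 287261 in plates, a ratio of 14574 with an exact interval of 8836 to 26039 (edgeR adjusted p = 0.00119). LOC121410683 was at 5.09, 4.01 and 4.38 CPM in peristomial membrane, and its log2 fold change was 6.996 (SE 1.30, edgeR adjusted p = 0.0224). Its call was lost in 5 of the 7 fits that left out a library of either type, with fold changes of 6.79 to 7.23.

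In coelomic fluid, which is 1 library, 54 members (36%) reached 10 CPM, against 77.8% of the genes at 10 CPM in each coloured spine. There 75 members were above their white spine value, against 29.7% of those genes. The white value chose the members, so this last count only describes them. The 3 highest members in coelomic fluid were LOC121411899 at 894 CPM, LOC121423647 at 858 CPM and LOC121424778 at 813 CPM. All 3 were broadly expressed and uneven among libraries of a type. LOC121411899 was at 177, 130.1 and 319.8 CPM in the green, mixed and red spines and 24.9 CPM in white, and at 758 to 900.1 CPM in plates. In tube foot it was at 96.7, 64.8, 50.8 and 112 CPM, below all plate libraries. Its log2 fold change in tube foot against the other types was -3.67 (SE 0.88, edgeR adjusted p = 0.00191). LOC121423647 was at 894, 1530 and 846 CPM in green, mixed and red and 162 CPM in white, and its levels were 6667 to 8617 CPM in plates and 239 to 2021 CPM in tube foot, without overlap. LOC121424778 was at 624, 1491 and 651 CPM in the coloured spines and 74.7 CPM in white, and it ranged from 14.04 to 13626 CPM within axial gland alone.

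**Figure D5:**
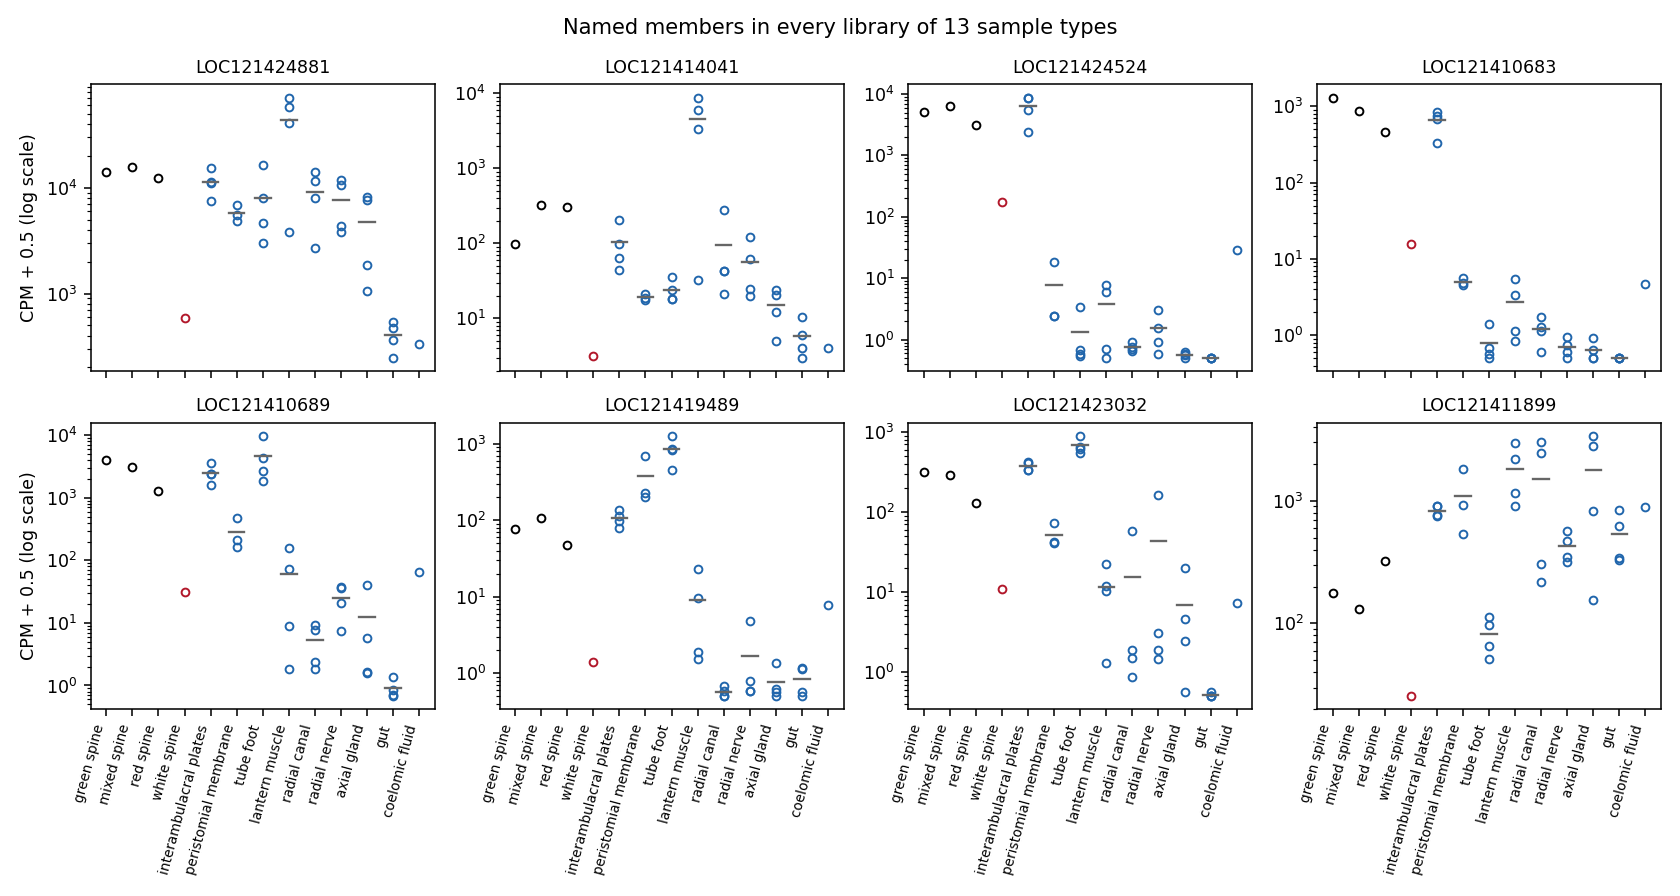
Each panel is 1 member, with CPM + 0.5 on a log y axis and sample types on the x axis. Circles are libraries (white spine in red, other spines in black, other types in blue), and lines are means where a type has more than 1 library. LOC121424881 and LOC121414041 are highest in 3 lantern muscle libraries, and LOC121424524 and LOC121410683 are high in plates and coloured spines. LOC121410689 and LOC121423032 are high in tube foot and plates. LOC121419489 is highest in tube foot, followed by peristomial membrane and plates.

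Some members lay beside each other in the genome. In the gene order of the RefSeq annotation, 17 of 150 members (11.3%) had a member as immediate neighbour, against 104 of the 7459 genes (1.39%). Within 3 genes the counts were 22 (14.7%) and 296 (3.97%). These members form 10 runs, 8 pairs and 2 runs of 3. Neighbouring genes can be near-identical copies that share reads, and their sequences were not used here, so values of single genes in a run are uncertain.

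LOC121410683, LOC121410685 and LOC121410689 are direct neighbours. LOC121410685 was at 145.5, 87.3 and 87.1 CPM in green, mixed and red and 2.86 CPM in white, so all 3 genes were low in white and all 3 were highest in green. In plates LOC121410685 was at 127, 286, 263 and 184 CPM, and the other 2 were at 332 to 850.4 CPM and 1619 to 3583 CPM. In tube foot they parted. LOC121410683 and LOC121410685 were at 0.923 CPM or less and LOC121410689 was at 1839 CPM or more.

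LOC121431621, LOC121432059 and LOC121431999 make up the other run of 3, which spans 4 genes. Their white values were 13.8 CPM, 19.99 CPM and 0.114 CPM against coloured values from 93.2, 297 and 14.1 CPM upward. Elsewhere they had different patterns. LOC121432059 was at 5266, 3161, 5220 and 233 CPM in lantern muscle (log2 fold change 5.48, SE 0.45, edgeR adjusted p = 6.84e-11, or 5.87, SE 0.43, edgeR adjusted p = 1.52e-11 without replicate 4), and 454 CPM or less in plates. LOC121431621 had its highest mean in ovary, at 1543 to 2955 CPM, and LOC121431999 in peristomial membrane, at 13.5, 23.8 and 40.5 CPM. The pair LOC121415528 and LOC121415530 had its highest mean in radial canal, at 76.2 to 609 CPM and 149.6 to 1540 CPM, with the same library highest and the same lowest for both genes. Of the 10 runs, 4 had the same highest type for all their members.

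The spine libraries were also described from the side of the tissues, for all genes called higher in a type and not members alone. Of 552 lantern muscle genes at 10 CPM in each coloured spine, 310 (56.2%) were lower in white than in every coloured spine, against 24.2% of the 7459 genes. Of these 552, 113 (20.5%) were past the 3-fold margin, against 3.49% of all, and 99 (17.9%) were higher in white than in every coloured spine. The 552 include 78 members. Of the other 474, 232 (48.9%) were lower in white than in every coloured spine, 99 (20.9%) were higher than in each, and 35 (7.38%) were past the margin, where 22.6%, 41.3% and 1.505% of the 7309 genes that are no members were. Without lantern muscle replicate 4 the list held 357 genes that are no members, with 50.1%, 21.01% and 6.72%. With members included, the share past the margin was 11.4% of 843 plate genes, 10.9% of 704 peristomial genes, 8.78% of 444 radial nerve genes, 7.22% of 1053 tube foot genes and 2.01% of 447 rectum genes. The share lower in white than in every coloured spine was also above 24.2% in most other lists. It was 43.7% for radial nerve, 34.2% for peristomial membrane, 34.0% for esophagus, 33.7% for plates and 33.3% for axial gland. For gut, tube foot, radial canal, mouth and rectum it was 32.4%, 29.7%, 28.6%, 24.4% and 18.6%. The median log2 ratio of the lowest coloured spine to white was 0.19 for lantern muscle genes and -0.42 for plate genes, against -0.44 for all 7459. Without the members it was -0.01 for the 474 lantern muscle genes and -0.45 for the 7309 genes.

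Stricter sets needed every library of a type above every library of the other adult types and a mean at least 4-fold above each. These sets were also summed in the spines. The plate set of 19 genes took 1.33%, 1.36% and 0.636% of counts in green, mixed and red and 0.0729% in white. It holds 7 members. Its other 12 genes took 0.0602%, 0.0555% and 0.0291% in the coloured spines and 0.0424% in white, which lies between red and mixed. The 7 members taken out were chosen by their low white values, so this remainder only describes the set. The tube foot set of 89 genes, with 1 member, took 1.35%, 0.911% and 1.21% in the coloured spines and 0.974% in white, also inside the coloured range. The coelomic fluid set of 26 genes took 0.0349%, 0.0484% and 0.0212%, and 0.0423% in white. The lantern muscle set of 7 genes, with no member, took 0.000732%, 0.00139% and 0.000469% in green, mixed and red and 0.000737% in white. The white share was 1.57 times the red one and rested on 129 counts, against 104 in red, so the sum was not lower in white. Genes in this set also had to be high in lantern muscle replicate 4, and the set was not drawn without that library. It therefore cannot speak for genes that are low in replicate 4. No axial gland gene passed. The broad list of lantern muscle genes thus held a larger share of genes lower in white than the other expressed genes did. Most lists of other types also held a larger share than all expressed genes, though smaller than that of lantern muscle. The sum of the strict set, which rests on few counts, was not lower. The part of lantern muscle genes in the result was not tested.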

How the data were processed

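PolyA RNA was sequenced as paired-end libraries, and the authors deposited 1 table of raw read counts per gene for 64 libraries. The submitters' processing notes name STAR, featureCounts and DESeq2 without versions. The genome build and the strand setting are not given in the sources used here, so no coordinates are printed and antisense or overlapping genes cannot be told apart. From these counts, 25887 genes were kept after 3 broken lines, with joined identifiers or empty count cells, were dropped. CPM was computed as the count divided by the column total and scaled to 1000000. Depth sets the counting precision, and intervals are Wilson or exact at 95%.

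Tests used edgeR 4.0.16 in R 4.3.3 (TMM scaling, filterByExpr by type, glmQLFit and glmQLFTest) on 41 somatic libraries, with Benjamini-Hochberg adjustment over 22649 genes. The code was tested on simulated data. Alternatives were DESeq2 1.42.0, other scalings, filters and fits, and each library left out in turn. The gonads, eggs, spines and coelomic fluid were not in the fit. RefSeq's Lvar_3.0 table gave gene classes and gene order only. No sequences were used here.

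The genes and the lists were chosen with earlier results of these data known. Genes are named if they are among the 8 highest ratios, the 4 highest levels in the lowest coloured spine, the 2 largest non-overlapping calls of each direction in each comparison of plates, tube foot or axial gland at 10 CPM, the 3 highest in coelomic fluid, or up to 6 in runs of neighbours. LOC121413829, LOC121412542, LOC121415528 and LOC121415530 were chosen after their values were seen.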

Additional observations from a re-analysis of the deposited data

Results flagged for a closer look

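Sets of 4 or more libraries of a type were checked for 1 library far from the rest. The checks covered the members' share of counts and the named genes, and 8 of 91 sets (8.79%) had one. The check flags about 1 in 20 sets only where values are normally spread. Counts near 0 are not, so the 8.79% is not read as an excess. A single library above 0 among libraries at 0 is always flagged, as for LOC121428605 in axial gland and LOC121419866 in tube foot. In the members' share of counts, radial canal replicate 1 stood at 4.42% and the other 3 at 3.06% to 3.15%. LOC121408051 was at 25.3 CPM in plate replicate 4 and 1.84 to 4.06 CPM in the other plates. Axial gland replicate 4 was the high library for 3 genes, with LOC121410689 at 40.0 CPM against 1.09 to 5.25 CPM, LOC121419489 at 0.858 CPM against 0 to 0.132 CPM, and LOC121428605 at 0.107 CPM against 0. In tube foot, LOC121424524 was at 2.94 CPM in replicate 4 and 0.0399 to 0.177 CPM in the others, and LOC121419866 was at 0.0883 CPM in replicate 1 and 0 in the others. LOC121424778 was at 3427 CPM in lantern muscle replicate 3 and 9609 to 10697 CPM in the other 3. Their causes were not tested.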

How the results depend on the processing

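Before the limit of 150, the set held 260 genes, and 154 with 5 CPM added, 444 at a 2-fold and 135 at a 5-fold margin. Of the 150, at least 114 stayed among the leading 150 under every alternative to the rule. Members called higher numbered 70 in plates (59 to 72 with each library left out), 78 in lantern muscle (67 to 81) and 47 in tube foot (42 to 49). Members highest in lantern muscle, plates and tube foot ranged over 44 to 54, 22 to 28 and 22 to 27. The direct comparisons depended on the fit. With the types alone, plates against tube foot gave 32 higher and 5 lower, and plates against peristomial membrane 28 and 6. Plates against peristomial membrane gave 4 higher in the fit of all 53 adult libraries. DESeq2 called 4 members lower in plates, 21 lower in axial gland, 3 lower in plates than tube foot, and 11 higher and 2 lower in plates than peristomial membrane. In the fit of all 53 adult libraries, 31 were higher in axial gland and 4 lower in lantern muscle. The share of all genes called in these alternative fits is not given here, so the shifts cannot be read as particular to the members. The cause of these shifts was not tested. With each library left out, members lower in plates numbered 0 to 2 and in lantern muscle 5 to 13. In tube foot 7 to 13 were lower, the 7 without tube foot replicate 3. In axial gland 1 to 9 were higher, the 1 without its replicate 3, and 4 to 9 lower, the 4 without its replicate 1 or 3. Plates against tube foot gave 7 to 8 higher and 0 to 1 lower, and plates against peristomial membrane 1 to 2 higher. The share of all genes called with a library left out is not given either, so these ranges only describe the members. The white to lowest coloured ratio was 0.115 for the plate set (0.111 at an 8-fold margin, 0.119 with TMM scaling), 1.07 for the tube foot set (1.00 and 1.16) and 1.999 for the coelomic fluid set (1.498 with TMM). No reversal was found among the fold changes of named genes, of which 8 were checked. The main counts and set ratios were graded only as same or moved. Of 625 such checks 584 were the same and 41 moved, so a reversal was not tested for them.

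Whether equal replicate numbers mark 1 animal is not in the labels, and correlations over so few libraries cannot decide it. Correlations of same-numbered deviations were -0.016 to 0.054 between plates and tube foot and -0.136 to 0.158 between plates and peristomial membrane. The same-numbered library correlated best for plate replicate 4 in tube foot and for plate replicates 1 and 3 in peristomial membrane, but not for the others. With replicate number as a block, 71 members were higher and 2 lower in plates, 49 higher in tube foot, 77 higher in lantern muscle, 2 higher in axial gland, 8 higher in plates than tube foot and 2 higher in plates than peristomial membrane. The share of all genes called in the block fit is not given here, so these counts are not a result about the members. The main limits are 1 library per spine colour and the lack of product names.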
